A study of Mus musculus with 3 samples.

Results

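Pou5f1, Sox2, Nanog, Sall4, Lin28a and Zfp296 are regulators of the pluripotent state, and their transcripts were followed in mouse embryonic stem cells whose translation had been blocked. The 6 genes were chosen by symbol, and each symbol occurred once among the 32285 listed genes. All 6 passed the floor of 10 CPM (UMI counts scaled to the same total in every library, averaged over the libraries) that defined the 7608 genes used for comparison. For Zfp296 the control level alone carried the gene past that floor.

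The cells were E14, an embryonic stem cell line of 129/Ola background, kept in serum and leukemia inhibitory factor. One day after plating, a culture received 250 µg/mL cycloheximide in 0.007% ethanol for 3 h, another the same for 6 h, and the control ethanol alone for 6 h. All cells were then trypsinized, frozen and thawed before droplet capture with 10x 3' v3 chemistry, which counts polyadenylated transcripts by unique molecular identifiers (UMIs). Each condition had 1 library, no control matched the 3 h exposure in duration, and both treated libraries are compared with the same control. No test between conditions was therefore possible. All intervals below are 95% and cover counting error only, and a difference between libraries cannot be told apart from a difference between cultures or preparations.

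Pluripotent cells are kept in their state by a small network of transcription factors that bind the enhancers of their own genes and of each other. OCT4 (the product of Pou5f1) and SOX2 bind DNA side by side, NANOG joins them at many enhancers, and the zinc finger proteins SALL4 and ZFP296 work in the same circuitry. LIN28A acts on RNA, where it blocks the maturation of let-7 microRNAs. Cycloheximide stops translation elongation, so short-lived proteins are lost while transcripts can still be made and degraded.

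Barcodes with at least 15000 UMIs and a mitochondrial share of 1 to 20% were taken as cells, which gave 2187 control cells, 1739 cells treated for 3 h and 2554 treated for 6 h. Libraries are listed in this order (control, 3 h, 6 h) wherever values follow each other. Median depth was 43160, 51726 and 46200 UMIs per cell. The mitochondrial share of UMIs was 4.57%, 3.51% and 2.94%, and its part in the results was not tested. Between 1 and 3 cell barcodes were shared by any pair of libraries. All 10 genes of an embryonic stem cell identity list passed the floor. That list holds the members Pou5f1, Sox2 and Nanog, and its other genes are on the network list read below. It is therefore no check of the cells apart from the genes described here. Fibroblast markers (10 genes) summed to 2.60 to 3.52 CPM and 13 markers of 2-cell-like cells to at most 0.646 CPM. Markers of primitive endoderm summed to 187, 186 and 183 CPM (2 of 12 above the floor), those of trophoblast to 47.8, 49.5 and 51.2 CPM (2 of 12), and those of mesoderm and primitive streak to 5.21, 5.73 and 8.16 CPM (0 of 10). Neural markers summed to 83.8, 60.9 and 44.5 CPM (1 of 10), and the part of any of these lists in the results was not tested.

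Promoter sequence is shown for Nanog, Sox2 and Zfp296, because these are the members with a POU motif in the promoter windows at hand, the kind of site that OCT4 binds. The RefSeq tables (GRCm38.p6, the patch release of the mm10 build) held 7 windows for the members other than Sall4, each covering 250 bases before to 50 bases after a start. The 250 bases before the start are printed 5′ to 3′ on the gene's strand. Capitals in the Nanog line mark a SOX motif and a POU motif 1 base apart, read on the opposite strand. Capitals in the Sox2 line mark the POU motif ATGCAAA, and those in the Zfp296 line the octamer ATGCAAAT read on the opposite strand.
Nanog, chr6:122707239-122707488, plus strand: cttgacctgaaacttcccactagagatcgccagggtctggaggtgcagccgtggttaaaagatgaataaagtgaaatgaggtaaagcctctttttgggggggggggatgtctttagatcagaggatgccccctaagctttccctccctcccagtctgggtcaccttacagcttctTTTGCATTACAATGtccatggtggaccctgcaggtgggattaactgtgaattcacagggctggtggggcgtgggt
Sox2, chr3:34649745-34649994, plus strand: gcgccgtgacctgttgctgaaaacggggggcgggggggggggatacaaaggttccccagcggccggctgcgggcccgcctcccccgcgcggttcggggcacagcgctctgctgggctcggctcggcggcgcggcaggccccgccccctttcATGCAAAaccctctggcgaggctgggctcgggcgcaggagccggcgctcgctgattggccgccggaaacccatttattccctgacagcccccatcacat
Zfp296, chr7:19577037-19577286, plus strand: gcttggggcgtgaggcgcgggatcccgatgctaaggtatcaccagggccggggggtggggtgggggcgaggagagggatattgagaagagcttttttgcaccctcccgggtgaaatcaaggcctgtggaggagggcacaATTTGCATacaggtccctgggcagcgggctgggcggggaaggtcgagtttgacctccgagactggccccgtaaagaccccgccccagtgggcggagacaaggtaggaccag

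Searched on both strands, ATGCAAA was found in 4.63% of all 32851 promoter windows of this length, ATGCAAAT, which contains it, in 1.74%, and the SOX motif CATTGT in 12.6%. The paired arrangement of Nanog (CATTGT, 1 base, ATGCAAA) was found in 2 windows of the whole table, both of them overlapping windows of Nanog that share the same bases. It began 75 bases before the first Nanog start, at chr6:122707414-122707427. The Zfp296 octamer began 111 bases before its start, at chr7:19577176-19577183. The Sox2 POU motif began 99 bases before its RefSeq start, at chr3:34649896-34649902. That RefSeq start lies upstream of the GENCODE M21 gene start given for Sox2 below (34650405). The Lin28a window held CATTGT 96 bases before the start, and the first Pou5f1 window held, of the motifs searched, only a GC box (GGGCGG, in 35.7% of all windows). AAGGTCA, which ESRRB binds, and TATAAA, the TATA box, were in none of the 7 windows, against 4.72% and 13.6% of all windows. A match describes letters in a window, and its absence says nothing about binding elsewhere.

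Pou5f1 (ENSMUSG00000024406, chromosome 17, 35506018 to 35510772, plus strand, 5 exons in GENCODE M21 on GRCm38) encodes the POU factor OCT4. Control cells held 533 CPM (528 to 537), 3 h cells 579 CPM (575 to 584) and 6 h cells 465 CPM (461 to 468). The 6 h library was the lowest and the 3 h library the highest, and no intervals overlapped. Relative to control, the log2 ratio of the 3 h library was 0.12, with the opposite sign under TMM scaling (-0.053), and that of the 6 h library was -0.20. Set directly against 3 h, the 6 h library gave -0.32, and 672 of the 7608 genes were lower in that comparison.

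Sox2 (ENSMUSG00000074637, chromosome 3, 34650405 to 34652461, plus strand, a gene of 1 exon) encodes the HMG-box partner of OCT4. Levels were 213 CPM (209.8 to 215) with ethanol, 285 CPM (282 to 288) after 3 h of cycloheximide and 146 CPM (144 to 148) after 6 h. Sox2 thus followed the same order as Pou5f1 with wider steps: the 3 h library had a log2 ratio of 0.42 (0.40 to 0.45) to control and the 6 h library one of -0.54 (-0.57 to -0.51). Between 3 h and 6 h it was -0.97 (-0.99 to -0.94), with 56 of 7608 genes (0.736%) lower. The long noncoding gene Sox2ot (ENSMUSG00000105265, chromosome 3, 34104270 to 34682619) spans Sox2 on the same strand, with 2.27, 6.80 and 10.7 CPM. Like Sox2 it was above the control at 3 h, but it was highest at 6 h, where Sox2 was lowest. How reads in the overlap of Sox2 and Sox2ot were assigned is not given in the sources used here.

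Nanog (ENSMUSG00000012396, chromosome 6, 122707489 to 122714633, plus strand, 4 exons) encodes the homeodomain factor of the network. The ethanol library held 123 CPM (121 to 125), the 3 h library 175 CPM (172 to 177) and the 6 h library 145 CPM (143 to 147). By CPM, Nanog was the only member above the control in both treated libraries. The log2 ratio to control was 0.50 (0.47 to 0.53) for 3 h and 0.24 (0.21 to 0.27) for 6 h, where TMM scaling turned it to -0.050. The 6 h library was nevertheless below the 3 h library for Nanog as for the other members, with a log2 ratio of -0.26.

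**Figure D1:**
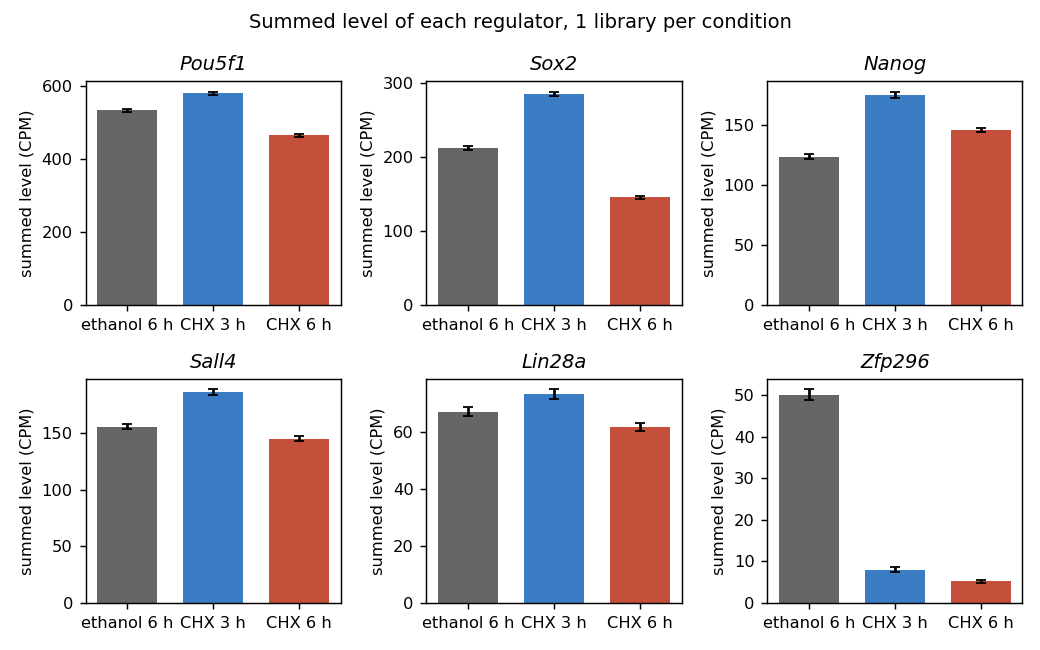
Level of each regulator (CPM, y axis from 0) in the libraries of cells given ethanol for 6 h and cycloheximide (CHX) for 3 h or 6 h, with 95% Poisson intervals as error bars. Pou5f1, Sox2, Sall4 and Lin28a peak at 3 h and are lowest at 6 h, Nanog is lowest in the control, and Zfp296 goes from 50.04 to 7.98 and 5.18 CPM; TMM scaling turns the ratios to control of Pou5f1 and Lin28a at 3 h and of Nanog at 6 h to the other side of 0, and UMIs per cell that of Sall4 at 6 h.

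Sall4 (ENSMUSG00000027547, chromosome 2, 168748332 to 168767943, minus strand, 4 exons) encodes a zinc finger protein that recruits the NuRD deacetylase complex. Sall4 stood at 156 CPM (153 to 158) with ethanol, 186 CPM (184 to 189) after 3 h and 145 CPM (143 to 147) after 6 h. The 3 h library stood above the others. Ratios to control were 0.26 on the log2 scale after 3 h and -0.10 after 6 h, where counting UMIs per cell in place of CPM gave 0.0073. Between the treated libraries the log2 ratio was -0.36.

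Lin28a (ENSMUSG00000050966, chromosome 4, 134003330 to 134018841, minus strand, 4 exons) is the RNA-binding member. Its levels were 67.2 CPM (65.7 to 68.7), 73.4 CPM (71.8 to 75.1) and 61.9 CPM (60.6 to 63.2). The order of the libraries was that of Pou5f1, Sox2 and Sall4. On the log2 scale the 3 h library was above control by 0.13, with the opposite sign under TMM scaling (-0.046). The 6 h library had -0.12, or -0.0095 by UMIs per cell, and -0.25 when set against 3 h.

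Zfp296 (ENSMUSG00000011267, chromosome 7, 19577287 to 19580656, plus strand, 3 exons), the other zinc finger gene, stood apart. The ethanol library held 50.04 CPM (48.7 to 51.4; 5577 UMIs), the 3 h library 7.98 CPM (7.46 to 8.54; 853 UMIs) and the 6 h library 5.18 CPM (4.81 to 5.57; 727 UMIs). At 3 h the level was 6.26 times lower than in the control (log2 ratio -2.65, -2.75 to -2.54), and 0 of the 7608 genes had a lower ratio. The 6 h level was 9.65 times lower (log2 ratio -3.27, -3.39 to -3.16), with 1 gene lower. These ranks leave out genes below the floor, which Zfp296 passed through its control level alone. Among genes left out, Zscan4d had -3.47 at 3 h (40 UMIs in the control and 3 at 3 h). Sox7 had -4.20 at 6 h (618 UMIs in the control and 42 at 6 h). Most of the Zfp296 difference was present at 3 h, and the 6 h level was lower again by a log2 ratio of -0.62. Over 10 other choices of scaling and cells the Zfp296 ratio to control ran from -2.82 to -2.38 at 3 h and from -3.56 to -3.16 at 6 h.

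Over the list, 0 of 6 members were at least 1.5-fold higher at 3 h, against 13.9% of all 7608 genes, and 1 (Zfp296) was at least 1.5-fold lower, against 2.13%. At 6 h against control, 0 were higher (all genes 22.1%) and 1, again Zfp296, was lower (all genes 7.79%). In the direct comparison of 6 h with 3 h, 0 were higher (all genes 1.74%) and 2, Sox2 and Zfp296, were lower (all genes 2.52%). The fold rule also asked that the counting interval exclude equality. With 6 genes these counts do not set the list apart from the background.

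The members had a median log2 ratio to control of 0.19 after 3 h, beside 0.11 over all genes, and of -0.16 after 6 h, beside 0.17. Between the treated libraries their median was -0.34, beside 0.044. All 6 members were lower at 6 h than at 3 h, a direction each kept under 10 other settings. By CPM, 57.7% of all genes were higher in this comparison, a majority that depended on the scaling. The median over all genes was -0.068 under TMM, -0.0036 with DESeq2 size factors and -0.12 by UMIs per cell. The members' medians were then -0.45, -0.39 and -0.50. Ratios to control depended more on scaling. TMM moved every log2 ratio by -0.17 (3 h), -0.29 (6 h) and -0.11 (6 h against 3 h), and UMIs per cell moved them by 0.27, 0.11 and -0.16. DESeq2 size factors moved them by -0.11, -0.16 and -0.047.

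A common shift leaves the distance to the median of all genes in place, and on this scale Sox2 stood at 0.31 in the 3 h library and -0.71 in the 6 h library. Nanog stood at 0.39 and 0.071, Sall4 at 0.15 and -0.27, Pou5f1 at 0.0097 and -0.36, and Lin28a at 0.017 and -0.28. The genes past 1.5-fold split by scaling as well: 86.7% of those called at 3 h were higher by CPM, 62.2% under TMM, 72.8% with DESeq2 factors and 97.5% by UMIs per cell. For the 6 h library the same shares were 73.9%, 40.7%, 55.9% and 83.5%, and between the treated libraries 40.7%, 16.0%, 30% and 10.1%.

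**Figure D2:**
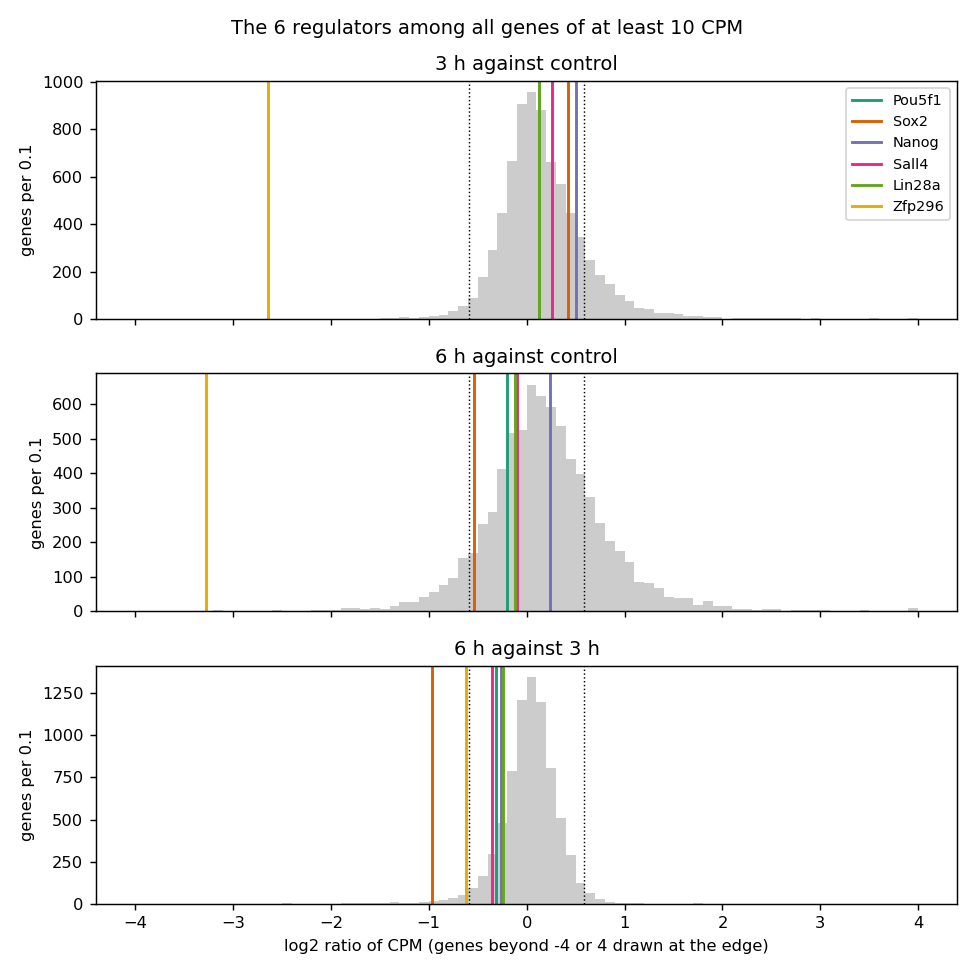
Log2 ratio of each regulator (vertical lines) at 3 h and 6 h against the control and at 6 h against 3 h, with the spread of all 7608 genes. Among these 7608 genes, whose floor Zfp296 passed through its control level alone, Zfp296 is the lowest at 3 h and has 1 gene below it at 6 h. Sox2 is the lowest of the regulators at 6 h against 3 h, and the 3 h values of Pou5f1 (0.12) and Lin28a (0.13) overlie each other.

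The same levels were read in cells of different depth, since the 3 h cells carried more UMIs. In cells of 15000 to 30000 UMIs, Sox2 stood at 200.4, 322 and 167 CPM. In cells of 60000 UMIs or more it stood at 218, 294 and 149.8 CPM, the same order. Zfp296 in the shallow cells had 49.8, 9.07 and 6.34 CPM, and in the deep cells 51.5, 8.18 and 5.31 CPM. Nanog at 6 h was above the control in the shallow cells (172 against 130.02 CPM) and in the deep cells (149.6 against 121 CPM). The 6 h levels of Sall4 and Lin28a depended on the class: in the shallow cells they were 166 and 71.2 CPM, above the control values of 159 and 63.5 CPM, with overlapping intervals. In the deep cells Sall4 had 145 CPM at 6 h against 160.2 CPM in the control, and Lin28a 64.2 against 73.4 CPM.

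**Figure D3:**
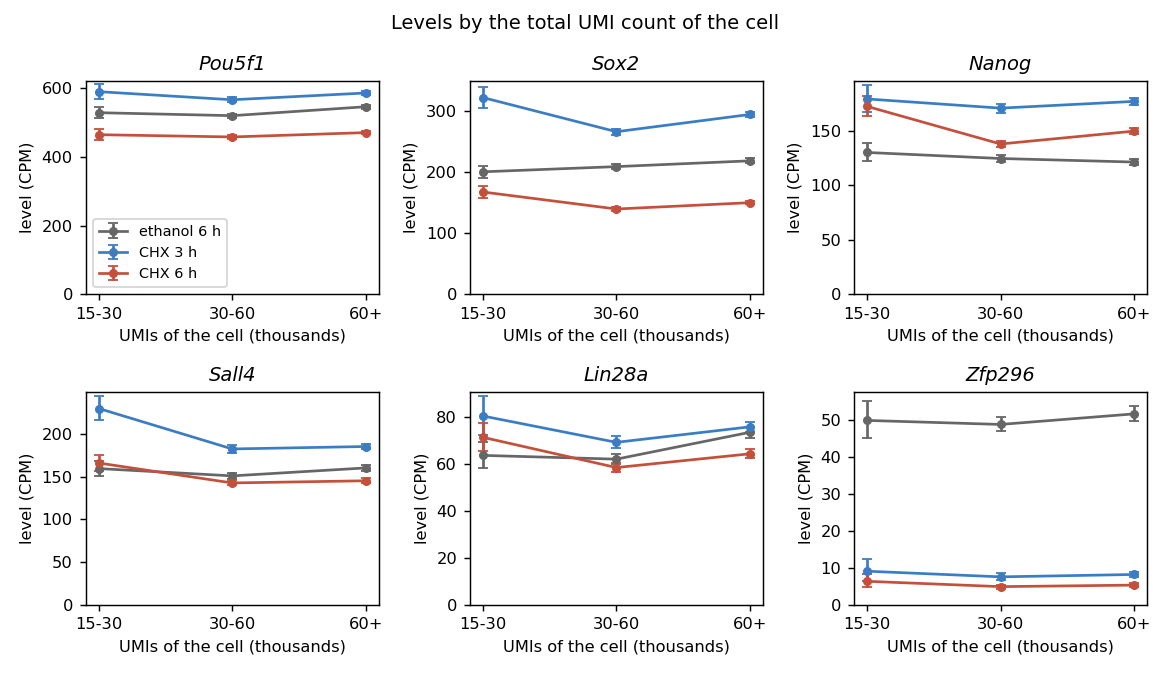
Level of each regulator (CPM, y axis from 0) in cells grouped by their total UMIs (15000 to 30000, 30000 to 60000, 60000 or more), by library, with 95% Poisson intervals. The order of the libraries for Pou5f1, Sox2, Nanog and Zfp296 is the same in every depth class, while the 6 h and control values of Sall4 and Lin28a cross in the shallowest class.

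RNA outside cells was read from barcodes of 10 to 100 UMIs. Zfp296 had 46.4, 8.47 and 4.08 CPM there, close to its levels in cells. Sox2 had 164, 257 and 107 CPM, and Nanog 135, 150.4 and 137 CPM. Pou5f1 had 734, 755 and 609 CPM, Sall4 253, 320.5 and 197 CPM, and Lin28a 101, 126 and 92.8 CPM. For Sox2 and Sall4 free RNA held the same order of libraries as the cells did. Intervals overlapped, and the order was not resolved, for Nanog, for Pou5f1 between the control and 3 h, for Lin28a between the control and 6 h, and for Zfp296 between 3 h and 6 h. No cell type that should lack these genes was present to give a background share, so the shares below count barcodes with a UMI.

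To compare cells at equal depth, each was thinned to 15000 UMIs. A Pou5f1 UMI was then found in 99.8%, 99.8% and 99.6% of cells. Sox2 was found in 92.1% (90.9 to 93.2), 96.4% (95.4 to 97.2) and 83.5% (82.0 to 84.9). Nanog was found in 80.6%, 88.04% and 81.8%, Sall4 in 88.5%, 92.4% and 86.2%, and Lin28a in 59.6%, 63.2% and 57.8%. For Sox2, Nanog, Sall4 and Lin28a these shares were ordered like the CPM, but only for Sox2 were all intervals apart. Control and 6 h intervals overlapped for Nanog (78.8 to 82.2 and 80.2 to 83.3) and Sall4 (87.1 to 89.8 and 84.8 to 87.5). The control interval of Lin28a (57.5 to 61.6) overlapped those of 3 h (60.9 to 65.5) and 6 h (55.8 to 59.7). Without cells above 2 times the median UMIs, Lin28a was found in 56.4% of control and 57.6% of 6 h cells, the opposite order. Nearly every cell had Pou5f1, and no order was read from its shares. Zfp296 was found in 50.2% (48.04 to 52.3), 10.2% (8.85 to 11.8) and 7.83% (6.82 to 8.94) of cells.

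Without thinning, Zfp296 was found in 79.97%, 31.9% and 21.97% of cells, Sox2 in 99.2%, 99.4% and 97.4%, and Nanog in 95.7%, 98.4% and 96.0%. The unthinned shares were 99.1%, 99.5% and 98.9% for Sall4 and 87.0%, 93.3% and 88.4% for Lin28a. Pou5f1 was then found in 100% of ethanol and 3 h cells and in 99.9% of 6 h cells. Cells with a UMI of all 6 members made up 20.7% (19.0 to 22.4), 5.06% (4.08 to 6.20) and 2.90% (2.28 to 3.62) of the thinned cells. This share cannot exceed that of Zfp296, the least often found member (50.2%, 10.2% and 7.83%), so it does not describe the other members. The UMIs of the 6 members together had medians of 17, 19 and 14 per thinned cell.

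**Figure D4:**
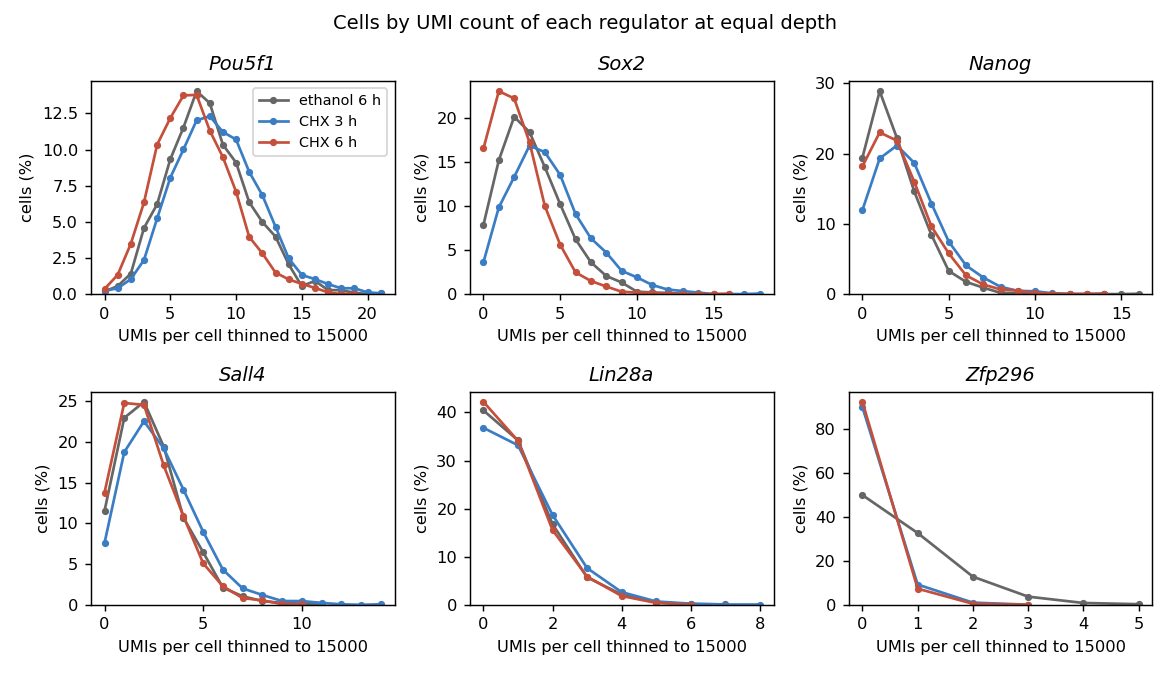
Share of cells (percent, y axis) by the number of UMIs of each regulator after thinning every cell to 15000 UMIs (x axis), by library. The distribution of Sox2 lies furthest right at 3 h and furthest left at 6 h, and the share of cells without Zfp296 goes from 49.8% in the control to 89.8% and 92.2%.

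Cell-to-cell spread was described by the Fano factor of the thinned counts, the variance over the mean, which is 1 for counting noise alone. Sox2 had Fano factors of 1.44, 1.58 and 1.52, and Nanog 1.39, 1.46 and 1.57. Pou5f1, the member with the highest counts per cell, had 1.21, 1.23 and 1.25. Spread beyond counting noise, as the excess squared coefficient of variation, was 0.21, 0.17 and 0.26 for Nanog. For Sox2 it was 0.14, 0.14 and 0.23, so the 6 h library had the widest relative spread of Sox2. For Nanog the order changed with the setting. With no lower mitochondrial limit the values were 0.26, 0.18 and 0.26, with the control no narrower than 6 h. Thinned to 30000 UMIs they were 0.199, 0.203 and 0.258. Both settings also changed the random draw, and another draw on the main cells gave 0.24, 0.18 and 0.27.

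Nanog is known to vary between cells in serum culture. Cells without a Nanog UMI made up 19.4%, 11.96% and 18.2% of the libraries, where a Poisson distribution of the same mean gives 15.2%, 6.99% and 11.002%. Nanog-free cells in this sense were 425, 208 and 465. Other members were slightly lower in them in some cases: in the control the mean Sall4 count was 2.10 ± 1.51 (SD over 425 cells) against 2.39 ± 1.70 in the 1762 cells with Nanog. At 6 h the mean Sox2 count was 1.92 ± 1.66 (SD over 465 cells) against 2.33 ± 1.88 in 2089 cells. These differences were small beside the spread between cells.

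Between cells of 1 library, correlations of the members were weak once depth was equal. Spearman's rho over the 15 pairs had a median of 0.023 over 2187 control cells (range -0.044 to 0.080), 0.020 over 1739 cells of the 3 h library (-0.042 to 0.082) and 0.021 over 2554 cells of the 6 h library (-0.025 to 0.098). Without thinning, where cells differ in total UMIs, the medians were 0.48, 0.55 and 0.41. Thinning evens out depth and also makes counts sparser, and the parts of each in this drop were not tested. Another random draw gave medians of 0.042, 0.033 and 0.015, and thinning to 30000 UMIs gave 0.050, 0.037 and 0.021, with Sox2 and Nanog highest at 0.22 in the 6 h library. The pair of Sox2 and Sall4 had 0.080, 0.082 and 0.061 after thinning, and Pou5f1 and Sox2 had -0.044, -0.016 and -0.025. After subtraction of counting noise, the pair of Sox2 and Sall4 had 0.38, 0.38 and 0.35, and the median over pairs was 0.10, 0.097 and 0.14. In another random draw Sox2 and Sall4 had 0.52, 0.58 and 0.29. Counts this sparse dampen any correlation, and these values describe these cells only.

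**Figure D5:**
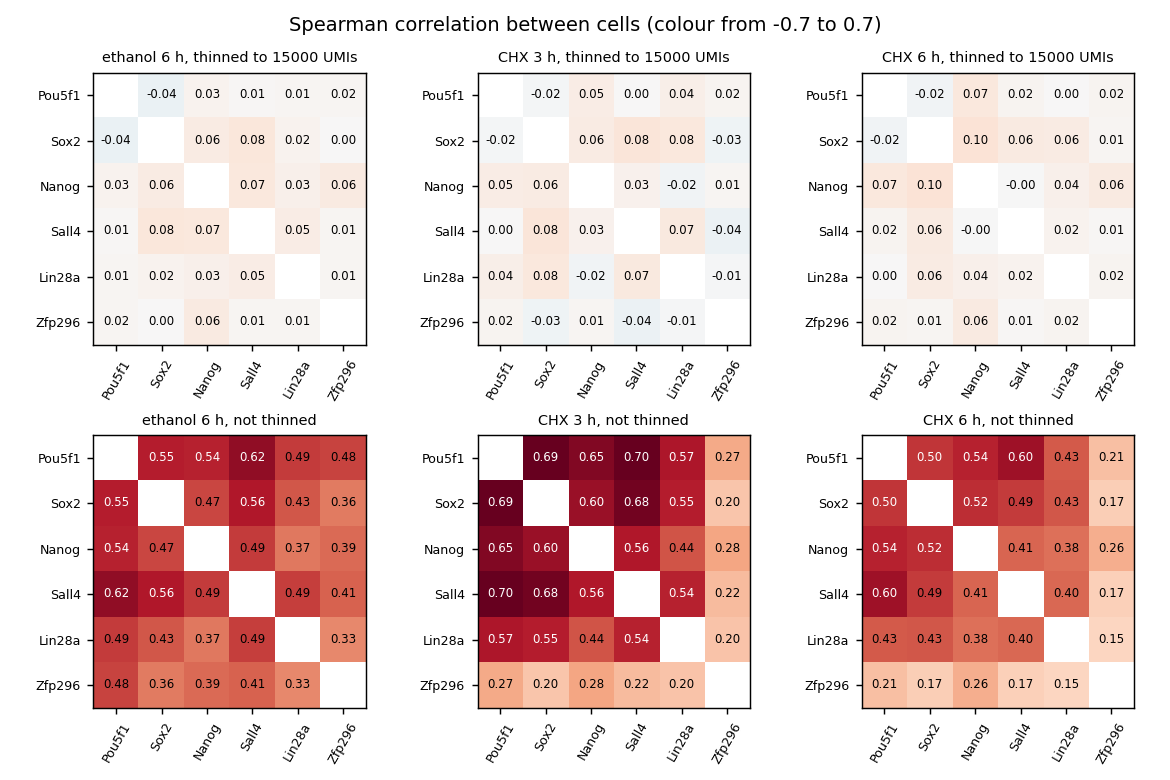
Spearman correlation between cells for each pair of regulators in each library (color and printed value), after thinning to 15000 UMIs (top row) and without thinning (bottom row). Thinned values lie between -0.044 and 0.098, and unthinned values between 0.15 and 0.70.

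The genes most like each member between thinned control cells were sought among 3801 genes with at least 0.5 UMIs per cell. For Sox2 they were Tet1 (rho 0.20), Hnrnpa3 (0.16) and Kcnq1ot1 (0.16), and the value for Tet1, which encodes a 5-methylcytosine oxidase, was 0.25 at 3 h and 0.098 at 6 h. For Nanog they were Malat1 (0.16), Klf4 (0.15) and Kdm5b (0.15), and the value for the nuclear RNA Malat1 was 0.061 at 3 h and -0.050 at 6 h. Sox2 also varied with the mitochondrial share of the cell (0.14, 0.083 and 0.029), whose part in these values was not tested. For Pou5f1 they were Bex1 (0.13), Spint2 (0.12) and Ifitm2 (0.11), for Sall4 they included Cenpf (0.13) and Ankrd11 (0.12), and for Lin28a Jade1 (0.13), Hnrnpu (0.13) and Chd4 (0.12). Zfp296 had Rmnd5b (0.099), Ube2c (0.097) and Cks2 (0.082). All of these correlations were weak.

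Other genes of the pluripotency network were read beside the members, as 27 of 30 listed genes that passed the floor. At 3 h, 4 were at least 1.5-fold higher and 2 lower (all genes 13.9% and 2.13%). By UMIs per cell 16 were higher and 1 lower (all genes 30.1% and 0.775%). The 6 h library had 2 higher and 8 lower against control (all genes 22.1% and 7.79%), and 0 higher and 9 lower against 3 h (1.74% and 2.52%). The median log2 ratio was 0.34, -0.12 and -0.30 in these comparisons, and under 3 other scalings it ran from 0.16 to 0.61, from -0.40 to -0.0078 and from -0.46 to -0.35. Of the 27, Klf2, a Krüppel-like factor of the naive state, had the highest log2 ratio to control at 6 h (0.76), with 196, 368 and 332 CPM. Thap11 followed with 51.5, 67.2 and 78.3 CPM. Otx2, Dppa3 and Prdm14, which the floor left out, had higher ratios still (1.47, 1.36 and 1.09), at 5.99, 8.65 and 9.56 CPM in the 6 h library. Gbx2, a homeobox gene downstream of leukemia inhibitory factor signaling, had the lowest ratio, with 95.3, 33.8 and 10.4 CPM. Klf5 was next with 358, 446 and 165 CPM.

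Of 14 genes listed as targets of OCT4 and SOX2, 13 passed the floor, and Fgf4, Utf1, Zfp42 and Dppa4 were among those on the network list too. At 3 h 2 were higher and 0 lower (all genes 13.9% and 2.13%), at 6 h 1 was higher and 6 lower (22.1% and 7.79%), and at 6 h against 3 h 0 were higher and 4 lower (1.74% and 2.52%). By UMIs per cell 4 were higher and 0 lower at 3 h (all genes 30.1% and 0.775%). At 6 h 2 were higher and 4 lower by UMIs per cell (all genes 27.8% and 5.49%). Their median log2 ratio to control was 0.15 after 3 h, with the opposite sign under TMM (-0.020), and -0.14 after 6 h, and the median between the treated libraries was -0.23. Fbxo15, an F-box gene used as a stem cell marker, had 51.8, 103 and 126 CPM. Lefty1, a Nodal antagonist, had 13.7, 14.4 and 5.72 CPM. Zfp42, which encodes REX1, had 455, 592 and 239.6 CPM, the same order as Sox2.

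The let-7 and LIN28 pathway, the setting of Lin28a, was a list of 19 symbols, of which 17 were found in the files and 16 passed the floor. At 3 h 1 was higher and 3 lower (all genes 13.9% and 2.13%), at 6 h 1 was higher and 6 lower (22.1% and 7.79%), and between the treated libraries 0 were higher and 2 lower (1.74% and 2.52%). The 3 h counts were 0 higher and 4 lower under TMM (all genes 8.60% and 5.23%). By UMIs per cell they were 2 higher and 1 lower (all genes 30.1% and 0.775%). Between the treated libraries 4 were lower under both (all genes 4.22% under TMM and 5.28% by UMIs per cell). Their median log2 ratio to control was -0.21 after 3 h, with the opposite sign by UMIs per cell (0.064), and -0.22 after 6 h, and the median between the treated libraries was -0.030. Tut7, a uridylyltransferase that acts on let-7 precursors, had 26.9, 42.5 and 41.7 CPM. The targets Myc (35.8, 25.6 and 6.78 CPM) and Mycn (29.7, 29.8 and 10.8 CPM) had the lowest ratios to control at 6 h. Lin28b, the paralog of Lin28a, had 14.8, 16.6 and 20.1 CPM, highest at 6 h where Lin28a was lowest.

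NuRD, the complex that SALL4 recruits, had 13 of 14 subunits above the floor. At 3 h 0 passed 1.5-fold (all genes 13.9% higher and 2.13% lower), at 6 h 0 were higher and 1 lower (22.1% and 7.79%), and between the treated libraries 0 passed (1.74% and 2.52%). The gene lower at 6 h was Chd4, the remodeling ATPase. The count lower at 6 h was 0 by UMIs per cell (all genes 5.49%). It was 2 under TMM (all genes 16.9%) and with DESeq2 factors (all genes 12.2%). Median log2 ratios of NuRD were 0.072 (3 h), 0.096 (6 h) and 0.020 (6 h against 3 h), with the opposite signs under TMM (-0.10, -0.19 and -0.092) and DESeq2 factors (-0.043, -0.066 and -0.027). By UMIs per cell they were 0.34, 0.20 and -0.14. Chd4 had 276, 222 and 182 CPM, and Gatad2a 83.1, 67.4 and 57.2 CPM. The highest NuRD ratios at 6 h were those of Cdk2ap1 (76.9, 84.5 and 96.4 CPM) and Chd3 (9.63, 10.2 and 11.3 CPM).

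Among paralogs of the members, 9 of 18 passed the floor, with 2 higher and 0 lower at 3 h (all genes 13.9% and 2.13%), 3 higher and 0 lower at 6 h (22.1% and 7.79%), and 0 higher and 1 lower between the treated libraries (1.74% and 2.52%). By UMIs per cell 5 were higher at 3 h (all genes 30.1%). Sall3 had 10.6, 30.04 and 41.1 CPM and Sox4 21.3, 43.3 and 42.4 CPM, both above the control at 6 h. Sall1 followed Sall4, with 68.5, 99.5 and 60.5 CPM. Pou2f1, which encodes the widely expressed octamer-binding protein OCT1, had 34.3, 34.0 and 33.5 CPM.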

How the data were processed

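The 3 deposited matrices hold raw UMI counts per gene and barcode, per the file headers, made with Cell Ranger 4.0.0 on mm10, per the submitters' processing notes; the annotation and the counting of overlapping genes are not given in the sources used here. All 6794880 possible barcodes were listed for 32285 genes, with no cell calls. Libraries held 127601369 UMIs (control), 115188502 (3 h) and 150987519 (6 h), of which 87.3%, 92.8% and 92.9% lay in the cells used. The lower mitochondrial limit left out 62, 1 and 8 barcodes, and the upper limit 0.

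UMIs were summed over cells and scaled to CPM by the total in cells. Log2 ratios used a prior of 0.5 counts with exact conditional binomial intervals, levels exact Poisson intervals and shares exact Clopper-Pearson intervals, at 95%, and UMIs in thinned cells were drawn without replacement. A gene was past the fold at 1.5-fold with an interval excluding equality. With 1 library per group no test was made; cells are not replicates. No doublet caller was run, and cells above 2 times the median UMIs were left out as an alternative. Members and lists were chosen with earlier results of these data known. All 6 members were described, the 3 most correlated genes per member, and per list the 2 highest and 2 lowest ratios at 6 h; some genes that this rule names are not reported here. Sox2ot and Lin28b were named in addition, after their values had been seen. Identifiers matched GENCODE M21 (GRCm38) for 32235 of 32285 genes. Alternative scalings came from edgeR 4.0.16 (TMM) and DESeq2 1.42.0 (size factors) in R 4.3.3, and the rest from Python 3.11.15 with numpy 2.4.6 and scipy 1.17.1. The ratio and thinning code was tested on simulated data.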

Additional observations from a re-analysis of the deposited data

Results flagged for a closer look

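In 4 of the 6 members the 3 h and 6 h libraries stood on opposite sides of the same control, with both counting intervals excluding equality. With 1 library per exposure, this difference was not tested. The share of all genes that meet the same rule was not computed, so this count does not set the members apart. For Sox2 the log2 ratio to control was 0.42 (3 h) and -0.54 (6 h), and the 6 h library lay at -0.97 relative to 3 h. Sall4 had 0.26 and -0.10, and -0.36 between the times. For Pou5f1 the values were 0.12 and -0.20, and -0.32 between the times, and for Lin28a they were 0.13 and -0.12, and -0.25. The sides taken by Pou5f1, Lin28a and Sall4 changed with the scaling, as given below, while those of Sox2 did not under the 10 alternatives run.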

How the results depend on the processing

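No paired analysis was possible because each group had 1 library and the labels carry no replicate numbers, and no library could be left out in turn. Among the recomputed member ratios 4 changed sign: Pou5f1 (-0.053) and Lin28a (-0.046) at 3 h and Nanog (-0.050) at 6 h under TMM, and Sall4 at 6 h by UMIs per cell (0.0073). The members' median at 3 h was 0.018 under TMM, 0.078 with DESeq2 factors, 0.46 by UMIs per cell, 0.25 with no lower mitochondrial limit, and 0.082 with TMM over genes of at least 10 CPM, an alternative chosen after seeing the data. At 6 h it was -0.44, -0.32 and -0.049 under TMM, DESeq2 factors and UMIs per cell, and -0.31 under that TMM variant. Between the treated libraries it was -0.45, -0.39, -0.50 and -0.38 in the same order, and -0.31 after subtracting 10% free RNA. By UMIs per cell 2 members (Sox2 and Nanog) passed 1.5-fold higher at 3 h, against 30.1% of all genes. At 6 h 2 members were lower under TMM, DESeq2 factors and the TMM variant, where Sox2 joined Zfp296, and 16.9% (TMM) and 12.2% (DESeq2) of all genes were lower. Between the treated libraries 1 member was lower after subtracting free RNA and 0 at a 2-fold limit. The median pair correlation without thinning was 0.48, 0.55 and 0.41. Depth limited shares and correlations most for Zfp296 in treated cells, at under 1 UMI per cell. Of the spread values recomputed under alternatives, 43 moved and 47 did not.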
